A study of Drosophila melanogaster with 20 samples.

Results

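The mitochondrial genome of Drosophila melanogaster was represented by 37 annotated genes among the 17559 features of the count tables. They were taken as every feature that the deposited tables place on the mitochondrial genome, with no selection on values. The set held 13 protein-coding genes, 22 tRNA genes and 2 rRNA genes, and the deposited coordinates are those of the BDGP6 build. All 37 had at least 1 read in some library, and 30 passed the filter on low counts: all 13 protein-coding genes, both rRNA genes and 15 of the 22 tRNA genes.

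Small RNA was sequenced as single 51-base reads from cells of dissociated, formaldehyde-fixed embryos that had been stained for a neural marker and sorted by flow cytometry. The 20 libraries formed 10 groups of 2, described in the labels as biological duplicates. At 18-22 h after egg laying the groups were elav-positive, elav-negative, repo-positive and repo-negative cells, and at 6-8 h they were elav-positive, elav-negative, repo-positive, repo-negative, prospero-positive (pros-positive) and pros-negative cells. The labels describe the elav sort as enriching neurons, the repo sort as enriching glia and the pros sort as enriching neuroblasts, the neural stem cells. The labels name no genotype, transgene or drug for any group, and the negative fractions are the marker-negative cells of each sort. The elav protein is a neuronal RNA-binding protein, repo is a transcription factor of glia, and prospero is a transcription factor of dividing neural lineages.

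The mitochondrial genome is a compact circle whose genes lie on both strands and are transcribed as long precursors. In animal mitochondria many mRNAs and rRNAs are separated from these precursors by excision of the tRNAs between them. The protein-coding genes encode core subunits of the respiratory chain and ATP synthase: ND genes for complex I, Cyt-b for complex III, Co genes for complex IV (cytochrome c oxidase) and ATPase genes for complex V. The lrRNA and srRNA form the large and small subunits of the mitochondrial ribosome, and all other subunits and factors are imported from the nucleus. Because the libraries hold small RNA, a count on an mRNA or rRNA gene is a count of short RNA or of fragments and is not a measure of the full-length transcript.

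Mitochondrial counts made up between 1.25% of the non-miRNA counts (pros-positive replicate 2, Wilson 95% interval 1.24 to 1.26%) and 3.67% (repo-negative 6-8 h replicate 1, 3.66 to 3.69%), with a median over libraries of 2.50%. The libraries held 6863042 to 24501421 counts in all, and 77538 to 314971 counts on the mitochondrial genome. Intervals cover counting error only. Levels below are counts per 1000000 non-miRNA counts (CPM) after scaling by the trimmed mean of M values (TMM). Both replicate 2 libraries of the elav sort at 6-8 h stood apart. The elav-positive one had the highest TMM factor of the 20 libraries, 1.73, and the fewest miRNA counts, 70156. The elav-negative one had the next fewest miRNA counts, 199947. Protein-coding genes took 28.4% and 28.2% of their mitochondrial counts, against at most 22.9% in any other library (pros-negative replicate 1). The sorts separated their own markers, with log2 differences between positive and negative fractions of 3.36 and 3.51 for elav, 5.44 and 5.49 for repo and 4.05 for pros. Markers of other sorts moved too by edgeR: elav was higher in pros-positive cells (log2 fold change 3.22; adjusted p 2.54e-05), repo in elav-positive 6-8 h cells (1.32; adjusted p 0.0228) and pros in elav-positive 18-22 h cells (1.28; adjusted p 0.0143). In bulk fractions, fewer cells of a type and less RNA per cell cannot be told apart.

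Ribosomal RNA dominated the mitochondrial counts. Over all libraries, the 2 rRNA genes took 72.6% of the 4046011 mitochondrial counts, the 13 protein-coding genes 19.8% and the 22 tRNA genes 7.58%. The rRNA share ranged over libraries from 67.9 to 77.0% and the protein-coding share from 15.9 to 28.4%. The tRNA share ranged from 3.15% in elav-positive 6-8 h replicate 2 to 13.7% in repo-positive 6-8 h replicate 1. Of the mitochondrial tRNA counts, 91.6% lay on the single gene mt:tRNA:Ser-GCT, which reads one set of serine codons, with a range over libraries of 76.5 to 96.2%.

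Per kilobase of gene, the small-subunit rRNA was above the large-subunit rRNA in 20 of 20 libraries. Averaged over the 20 libraries, mt:srRNA (14131-14916, minus strand) reached 10876 CPM per kb and mt:lrRNA (12734-14058, minus strand) reached 7855 CPM per kb. The ratio of lrRNA to srRNA per kb ranged from 0.556 to 0.964, with a median of 0.722. In raw counts the longer lrRNA gene had 0.937 to 1.62 times the counts of srRNA.

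**Figure D1:**
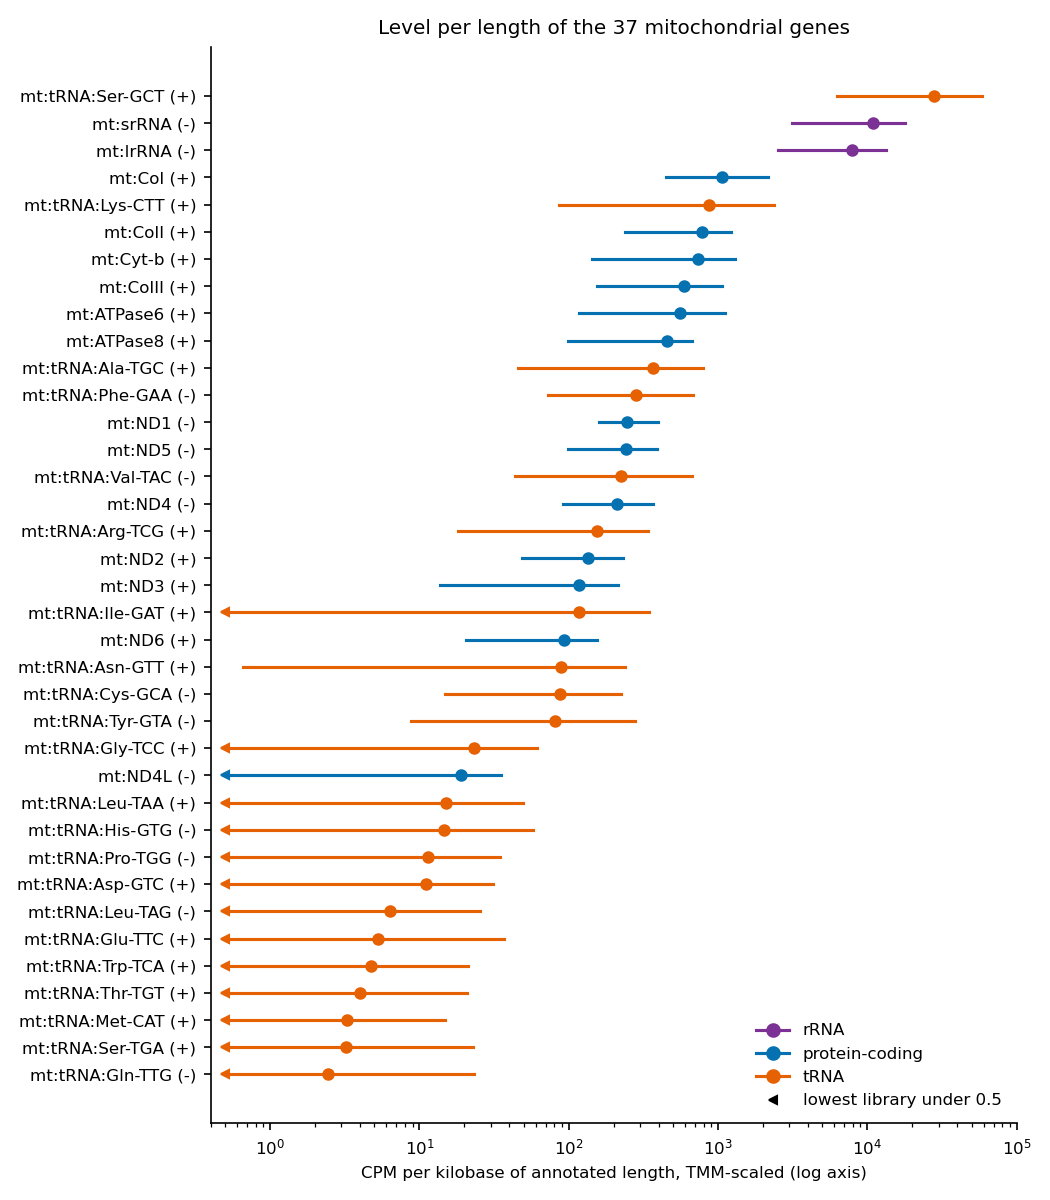
Level of each of the 37 mitochondrial genes per kilobase (CPM per kb, log axis), with a point at the mean of 20 libraries and a line from the lowest to the highest library. mt:tRNA:Ser-GCT stood at the top with 27904 CPM per kb and ND4L was the lowest protein-coding gene with 19.0 CPM per kb.

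The cytochrome c oxidase and cytochrome b genes led the protein-coding genes. mt:CoI (1474-3009, plus strand), the catalytic subunit of complex IV, averaged 1061 CPM per kb and ranked first of 13 in 10 of 10 groups. The other oxidase subunits followed, with mt:CoII (3083-3767) at 783 and mt:CoIII (4736-5524) at 593 CPM per kb. mt:Cyt-b (10498-11634), the electron-carrying core of complex III, averaged 738 CPM per kb. The order of CoI over CoII held in 20 of 20 libraries, while CoII was above Cyt-b in 16 libraries and Cyt-b above CoIII in 19.

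Averaged over the 20 libraries, the ATP synthase genes came next and the complex I genes last. mt:ATPase6 (4062-4736), part of the proton channel of ATP synthase, averaged 555 CPM per kb, and mt:ATPase8 (3907-4068), a short accessory subunit, averaged 454. These neighbours did not keep a fixed order, since CoIII exceeded ATPase6 in 12 of 20 libraries and ATPase6 exceeded ATPase8 in 14. The 7 complex I genes all lay below: ND1 at 245, ND5 at 241, ND4 at 211, ND2 at 135, ND3 at 118, ND6 at 92.9 and ND4L at 19.0 CPM per kb. ND1 and ND5 changed places in 10 of 20 libraries, whereas ND4 was above ND2 in 20 of 20. The pros fractions departed from the average order: ATPase8 ranked 2 of 13 in both, at 430 CPM per kb in pros-positive and 564 CPM per kb in pros-negative cells. In pros-positive cells ND1 also ranked 5, at 222 CPM per kb, above CoIII at 208 and ATPase6 at 192.

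mt:ND4L (9544-9834, minus strand), a small membrane subunit of complex I, ranked last of 13 in 10 of 10 groups. Its annotated neighbour mt:ND4 (8206-9544, minus strand) was higher per kb in 18 of the 18 libraries in which ND4L had a count. By strand, the 9 protein-coding genes on the plus strand had a median of 555 CPM per kb (92.9 to 1061) and the 4 on the minus strand a median of 226 CPM per kb (19.0 to 245). Both rRNA genes lie on the minus strand as well, and lrRNA exceeded ND1, the next rRNA or mRNA gene on that strand, by a median of 33.9 times per kb. ATPase8 and ATPase6 overlap by a few bases, as do ATPase6 with CoIII and ND4 with ND4L, so reads over those bases belong to both genes.

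Among the tRNAs, mt:tRNA:Ser-GCT (6184-6251, plus strand) stood far above the rest. It averaged 27904 CPM per kb, against 871 for mt:tRNA:Lys-CTT (3768-3838), which carries lysine, and 367 for mt:tRNA:Ala-TGC (5981-6045), which carries alanine. Ser-GCT was above Lys-CTT in 20 of 20 libraries, by 5.38 to 106 times, above lrRNA in 20 of 20 and above srRNA in 18 of 20. Its immediate neighbours on the same strand, chosen after their values were seen, were low: mt:tRNA:Asn-GTT (6119-6183) had 859.65 counts in all 20 libraries together and mt:tRNA:Glu-TTC (6252-6318) had 63.37, against 280918.06 for Ser-GCT. In this stretch the deposited gene boundaries lie up to 7 bases from those of a later Ensembl release, which puts Ser-GCT at 6191-6258. A total of 12 tRNA genes had under 300 counts over all 20 libraries, so the depth limits what could be seen for them.

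Replicates agreed closely for most mRNAs and poorly for the abundant tRNAs. The pooled SD between replicates on the log2(CPM + 0.5) scale was 0.14 for ND1, 0.15 for ND4, 0.22 for CoIII, 0.26 for CoI and 0.39 for srRNA. Among the mRNAs it was widest for ATPase8 (0.62), ND6 (0.54), ND4L (0.51) and ND2 (0.50). For the tRNAs it was 0.97 for Ser-GCT, 0.80 for Lys-CTT and 1.11 for Ala-TGC. Ser-GCT had 3970 and 550 CPM in the 2 elav-positive 6-8 h libraries, 3506 and 1156 CPM in elav-negative 6-8 h and 3795 and 901 CPM in repo-positive 6-8 h. The ranges of these 3 groups overlap, and each is wider than the gap between the group means.

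**Figure D2:**
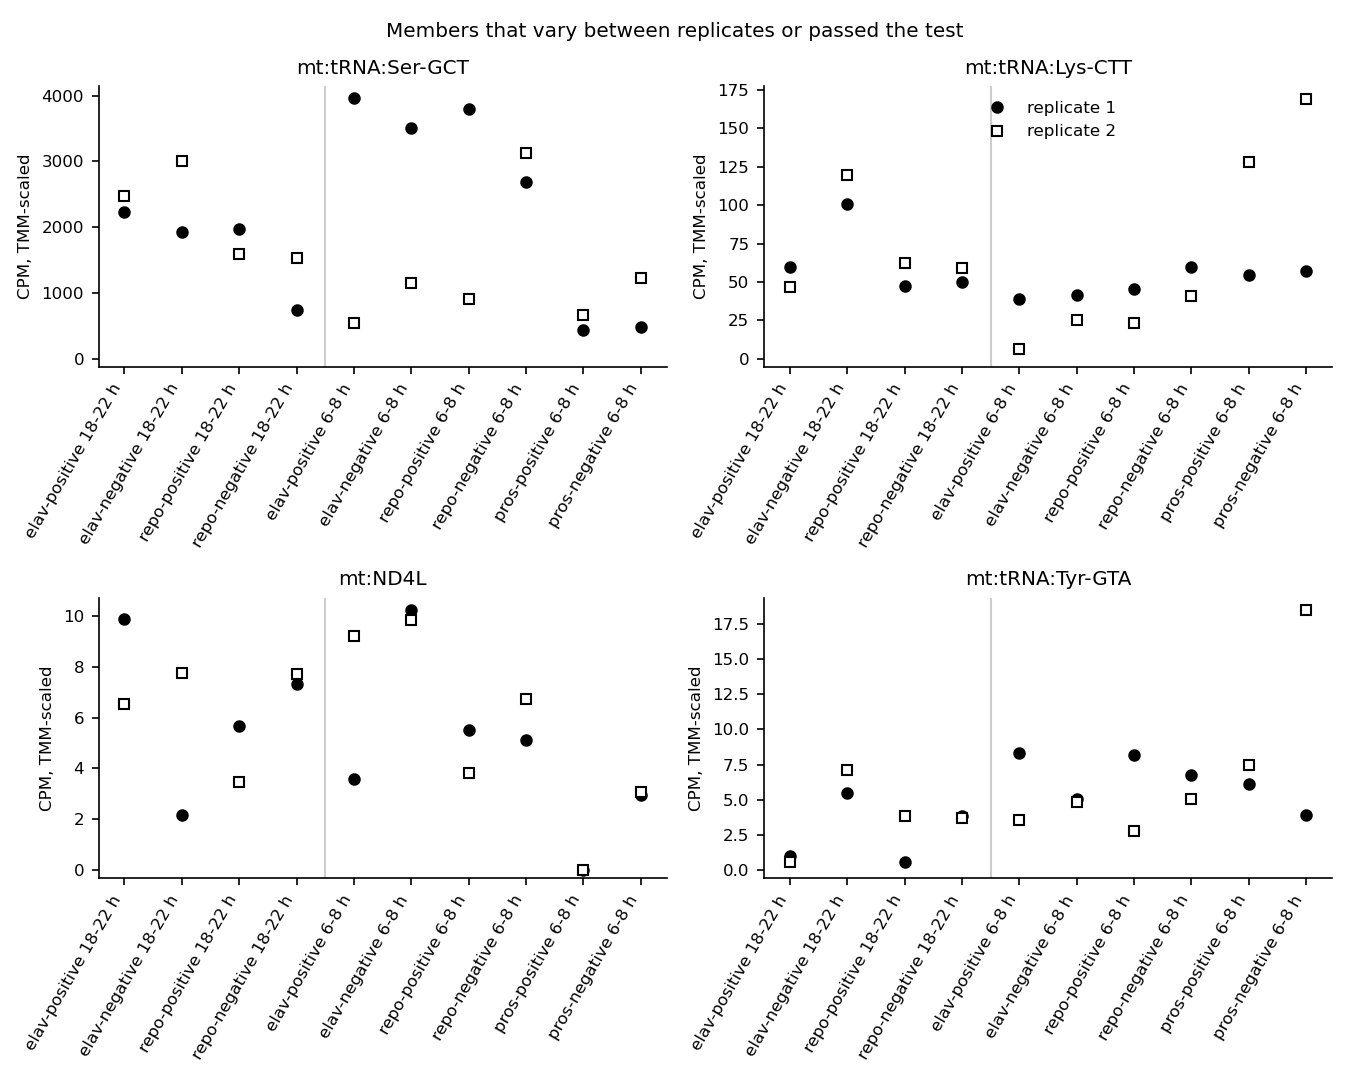
CPM of mt:tRNA:Ser-GCT, mt:tRNA:Lys-CTT, mt:ND4L and mt:tRNA:Tyr-GTA in each of the 20 libraries by group (filled circles replicate 1, open squares replicate 2; the grey line parts 18-22 h from 6-8 h). ND4L was at 0 in both pros-positive libraries, and Tyr-GTA was below 1 CPM in both elav-positive 18-22 h libraries.

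Across groups, with TMM scaling, the mean protein-coding and rRNA sums were lowest in the pros fractions and highest in elav-negative cells at 6-8 h. For rRNA the top place rested on 1 library. Elav-negative 6-8 h cells had 31731 and 21869 CPM, against 25502 and 23001 CPM in repo-negative 6-8 h cells. The 13 protein-coding genes summed to 2991 and 1840 CPM in pros-positive cells and to 3060 and 2694 CPM in pros-negative cells, whereas elav-negative 6-8 h cells had 7297 and 9074 CPM. The highest group mean was 3.39 times the lowest for protein-coding genes and 3.37 times for rRNA genes. With scaling to the total count in place of TMM these ratios were 2.40 and 2.59, and pros-positive cells were again lowest. Pros-negative cells were then no longer below all other groups for protein-coding genes. They had 4446 and 3534 CPM (mean 3990), against 3629 and 3827 CPM (mean 3728) in elav-negative 18-22 h cells. The highest protein-coding mean was then that of elav-positive 6-8 h cells (4975 and 9109 CPM). The highest rRNA mean was that of repo-negative 6-8 h cells (27250 and 22708 CPM). The pros libraries were mapped in a separate run directory per the file headers, so that processing and sort cannot be told apart in any contrast of pros libraries with the others, and none was tested.

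**Figure D3:**
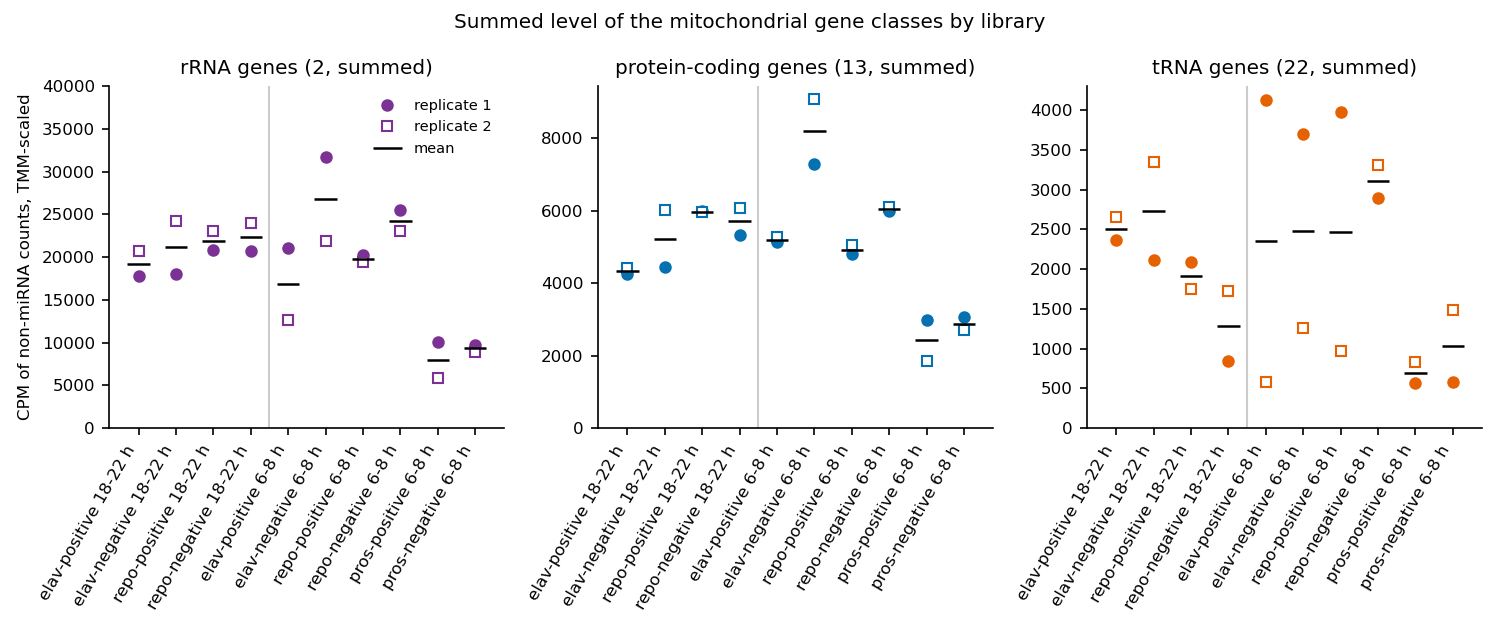
Summed CPM of the rRNA, protein-coding and tRNA genes in each library by group, with filled circles for replicate 1, open squares for replicate 2 and bars for group means. With this TMM scaling both pros groups lie below every other group for rRNA and protein-coding genes, and the tRNA sums split widely between replicates in 3 of the 6-8 h groups.

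Single genes differed in how far they followed this order. CoI had group means from 881 CPM in pros-positive cells to 2681 CPM in elav-negative 6-8 h cells, a 3.04-fold span. ND3, a small subunit of complex I, spanned 8.86-fold, from 8.51 to 75.4 CPM. Cyt-b spanned 5.13-fold, from 261 to 1339 CPM, in both cases between those same groups. ND1 spanned 2.39-fold, with its lowest mean of 154 CPM in elav-positive 18-22 h cells and its highest of 368 CPM in elav-negative 6-8 h cells.

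The elav sort at 6-8 h set neurons against the rest of the embryo. The protein-coding sum was 5121 and 5260 CPM in elav-positive cells, against 7297 and 9074 CPM in elav-negative cells, a ratio of means of 0.634. All 15 mRNA and rRNA genes had a negative log2 fold change, between -0.83 and -0.49, and in 11 of the 15 every elav-positive library lay below both elav-negative libraries, where 24.4% of all tested features did. None of the 30 tested members passed edgeR's quasi-likelihood test at an adjusted p of 0.05, against 8.98% of all 11726 tested features. At an unadjusted p under 0.05 there were 6 members, against 22.2% of all features, and DESeq2 called 1, ND1, against 13.1% of all features.

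ND1, a membrane-arm subunit of complex I, had 204 and 209 CPM in elav-positive 6-8 h cells, against 371 and 365 CPM in elav-negative 6-8 h cells. The groups did not overlap and the replicates lay close together. Its log2 fold change was -0.83 ± 0.28 (SE; 95% interval -1.41 to -0.25) with an edgeR adjusted p of 0.0661, and DESeq2 gave an adjusted p of 0.0190. CoI had 1648 and 1974 CPM in elav-positive cells, against 2036 and 3325 CPM in elav-negative cells, a log2 fold change of -0.57 ± 0.33 (SE; edgeR adjusted p 0.337). ND5, the large proton-pumping subunit, had 412 and 359 CPM in elav-positive cells, against 655 and 677 CPM in elav-negative cells, with an edgeR adjusted p of 0.135.

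Scaling mattered most in this sort. The medians were -0.70 for the protein-coding genes, -0.68 for the rRNA genes and -0.58 for the tested tRNA genes, beside 0.00 for all features. With total-count scaling they were 0.00 for protein-coding and -0.08 for rRNA genes, where the median of all features was 0.677. Without replicate 2 of both fractions the medians were -0.54, -0.56 and -0.27 in the same order of classes. The snoRNAs, a class of stable short nuclear RNA, had a median of -1.25 and the nuclear rRNA genes one of -0.47 in the same comparison. Of the hemocyte markers 5 of 7 were lower in elav-positive cells by edgeR (summed 21.0 and 35.2 CPM in elav-positive cells, against 104 and 238 CPM in elav-negative cells), and of the muscle markers 4 of 14 (198 and 271 CPM in elav-positive cells, against 298 and 485 CPM in elav-negative cells). The part of these classes and markers in the result was not tested.

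In the repo sort at 6-8 h, which set glia against the rest, the sums were also lower in the positive fraction. Protein-coding genes summed to 4794 and 5041 CPM in repo-positive cells, against 5992 and 6094 CPM in repo-negative cells, a ratio of 0.814. The rRNA genes gave a ratio of 0.817, again with no overlap. Of the 15 mRNA and rRNA genes, 13 were lower in both repo-positive libraries than in either repo-negative library, against 24.5% of all features. By edgeR 0 of 30 members were called, against 3.36% of all features, with 1 member at an unadjusted p under 0.05 (16.3% of all features) and 0 by DESeq2 (6.89%).

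No mRNA or rRNA gene had an interval that excluded 0 in this sort. ATPase8 had 56.2 and 57.0 CPM in repo-positive 6-8 h cells, against 88.6 and 107 CPM in repo-negative cells, a log2 fold change of -0.79 (95% interval -1.83 to 0.24; edgeR adjusted p 0.468). CoI had 1375 and 1591 CPM in repo-positive cells, against 1708 and 1911 CPM in repo-negative cells, a log2 fold change of -0.29 (-0.97 to 0.40; edgeR adjusted p 0.737). The median of the 13 protein-coding genes was -0.32, beside -0.00 for all features and -0.88 for snoRNAs. Of the hemocyte markers 2 of 7 were lower in repo-positive cells by edgeR (summed 24.4 and 29.0 CPM in repo-positive cells, against 68.8 and 102 CPM in repo-negative cells). Neuron markers were higher in 4 of 8 cases (summed 194 and 216 CPM in repo-positive cells, against 103 and 113 CPM in repo-negative cells). Of all features 0.981% were called lower and 2.38% higher. The part of the snoRNAs and these markers in the result was not tested.

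**Figure D4:**
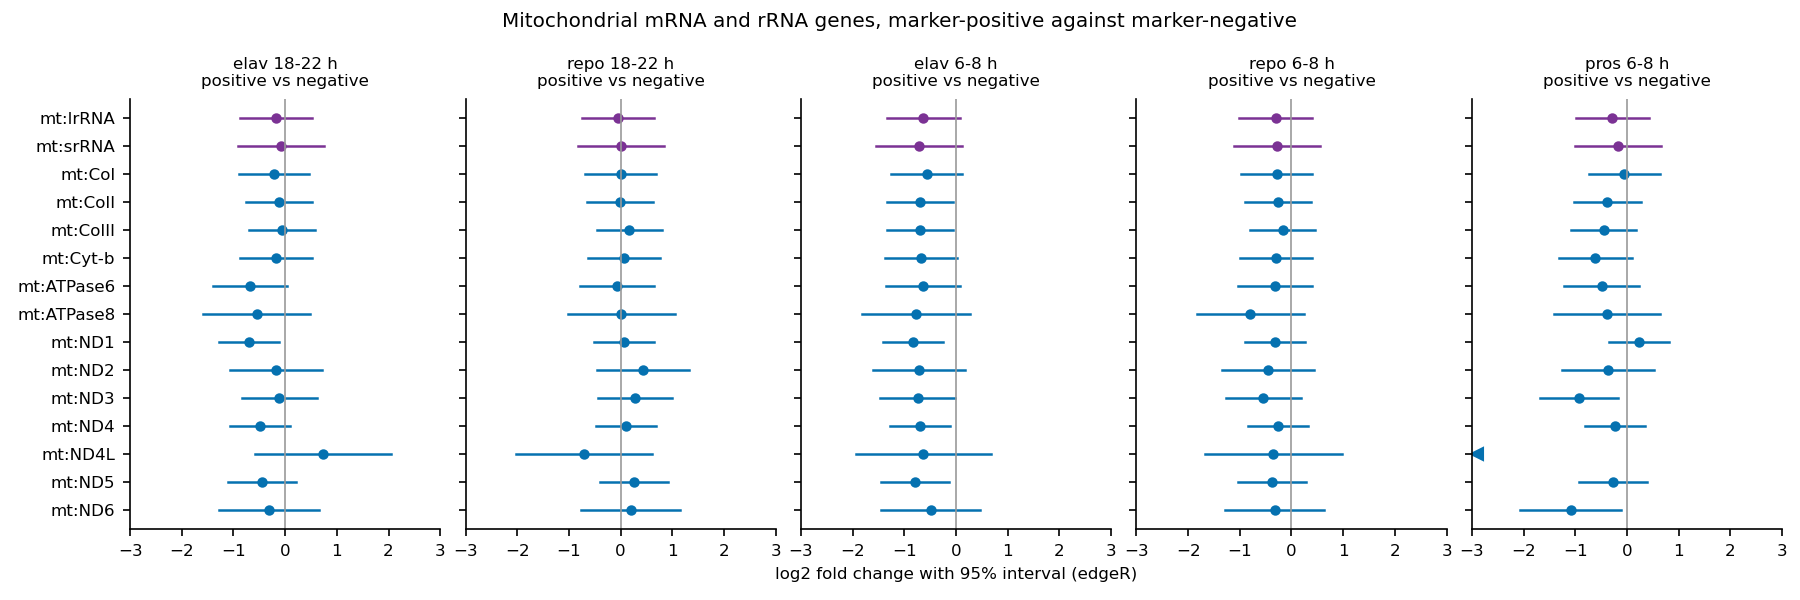
Log2 fold change of 15 mitochondrial mRNA and rRNA genes, positive over negative fraction, with edgeR 95% intervals in 5 sorts; the triangle at the left edge marks ND4L in the pros sort, where both pros-positive libraries were at 0. All 15 points lie left of 0 in the elav sort at 6-8 h, between -0.83 and -0.49.

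In the pros sort, 2 members passed the test and both were lower in pros-positive cells, against 2.46% of all features called in either direction and 1.26% called lower. ND4L had 0 and 0 CPM in pros-positive libraries, against 2.96 and 3.07 CPM in pros-negative libraries. No count fell on it in the positive fraction, and 45 rounded counts did in the negative fraction. Taking a floor of 3 counts over the group, ND4L was at least 23.9-fold lower in pros-positive cells (edgeR adjusted p 0.00167), and this call held under all 28 alternatives tried, with adjusted p from 2.02e-05 to 0.0184. The other call was mt:tRNA:Gly-TCC (5543-5607, plus strand), which carries glycine.

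Gly-TCC had 0 and 0.5 counts in pros-positive libraries, against 10 and 12.5 counts in pros-negative libraries. After rounding it was at least 11.7-fold lower (floor of 3 counts over the group; edgeR adjusted p 0.0482). That call lay at the threshold: it held under 7 of the 28 alternatives, with adjusted p from 0.0112 to 0.186. Leaving out 1 pros library gave edgeR adjusted p of 0.0839 and 0.186 without pros-positive replicates 1 and 2, and of 0.144 and 0.110 without pros-negative replicates 1 and 2. DESeq2 called 2 members in this sort, against 5.69% of all features, and 4 had an unadjusted p under 0.05, against 17.4%.

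For more abundant genes the pros fractions lay closer together. ND1 had 206 and 211 CPM in pros-positive cells, against 181 and 173 CPM in pros-negative cells, a log2 fold change of 0.23 (95% interval -0.34 to 0.81; edgeR adjusted p 0.723). CoI had 1077 and 685 CPM in pros-positive cells, against 954 and 866 CPM in pros-negative cells, and the groups overlapped. Among the 15 mRNA and rRNA genes, 7 lay lower without overlap and 1, ND1, higher, where 24.2% and 19.2% of all features did. ND3 had 12.1 and 4.90 CPM in pros-positive cells, against 18.6 and 14.1 CPM in pros-negative cells (log2 fold change -0.93; edgeR adjusted p 0.181). Of the neuron markers 6 of 8 were higher in pros-positive cells by edgeR and of the hemocyte markers 3 of 7 lower, and their part in these values was not tested.

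At 18-22 h, the protein-coding and rRNA sums of the repo fractions overlapped. Protein-coding genes summed to 5975 and 5957 CPM in repo-positive cells, against 5332 and 6066 CPM in repo-negative cells, a ratio of 1.05 with overlapping groups. CoI had 1838 and 1883 CPM in repo-positive cells, against 1726 and 1990 CPM in repo-negative cells, a log2 fold change of 0.00 (95% interval -0.68 to 0.68). The tRNA sum was 2090 and 1746 CPM in repo-positive cells, against 849 and 1719 CPM in repo-negative cells, a ratio of 1.49. Ser-GCT made up most of it, with 1969 and 1586 CPM in repo-positive cells, against 736 and 1538 CPM in repo-negative cells. Its log2 fold change was 0.65 with an edgeR adjusted p of 0.844. Of the 15 mRNA and rRNA genes, 1 lay lower and 3 higher without overlap, where 26.8% and 20.5% of all features did. By edgeR 0 of 30 members were called, against 2.31% of all features, with 0 at an unadjusted p under 0.05 (11.3% of all features) and 0 by DESeq2 (3.81%). Of the hemocyte markers 5 of 7 were lower in repo-positive cells by edgeR, where 0.87% of all features were. They summed to 355 and 186 CPM in repo-positive cells, against 4073 and 1914 CPM in repo-negative cells. Of the muscle markers 0 of 14 were called, with sums of 1167 and 910 CPM, against 2256 and 1835 CPM. The part of these markers in the result was not tested.

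In the elav sort at 18-22 h, 1 member was called, mt:tRNA:Tyr-GTA (1403-1468, minus strand), which carries tyrosine, against 14.1% of all features called in either direction and 5.24% called lower. It had 0.991 and 0.583 CPM in elav-positive cells, against 5.45 and 7.09 CPM in elav-negative cells. The positive libraries held 8.17 and 4.68 counts, so the estimate rests on few reads. The log2 fold change was -2.96 ± 0.87 (SE; 95% interval -4.77 to -1.14; edgeR adjusted p 0.0259). The call held under 24 of 28 alternatives (adjusted p 0.00506 to 0.175). It was lost without any 1 of its 4 libraries, with edgeR adjusted p of 0.126 and 0.175 without elav-positive replicates 1 and 2, and of 0.0657 and 0.111 without elav-negative replicates 1 and 2. DESeq2 called 3 members, against 18.6% of all features, and 3 had an unadjusted p under 0.05, against 27.4%.

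The mRNA and rRNA genes of the elav fractions at 18-22 h had fold changes centred near those of all features. Protein-coding genes summed to 4240 and 4428 CPM in elav-positive 18-22 h cells, against 4448 and 6007 CPM in elav-negative cells, a ratio of 0.829. ND1 had 149 and 159 CPM in elav-positive cells, against 206 and 295 CPM in elav-negative cells, a log2 fold change of -0.70 (95% interval -1.28 to -0.12; edgeR adjusted p 0.0995). Of the 15 mRNA and rRNA genes, 4 lay lower without overlap, against 33.8% of all features. The median of the protein-coding genes was -0.22, beside -0.19 for all features, and it was 0.19 beside 0.18 with total-count scaling. Other cell types moved with this sort: the summed muscle markers (14 of 15 symbols found, none at 0 in both libraries of a group) were 831 and 756 CPM in elav-positive cells, against 1938 and 1567 CPM in elav-negative cells, and the summed markers of hemocytes, the blood cells (7 found, none at 0), were 217 and 184 CPM in elav-positive cells, against 4706 and 2528 CPM in elav-negative cells. Their part in the result was not tested.

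The stages were compared within each fraction, and the widest difference in mitochondrial mRNA sums was in elav-negative cells. Protein-coding genes summed to 4448 and 6007 CPM at 18-22 h, against 7297 and 9074 CPM at 6-8 h, a ratio of 0.639. All 13 protein-coding genes had a negative log2 fold change, with a median of -0.61 beside 0.07 for all features. Without replicate 2 of the elav 6-8 h fractions this median was -0.60. ND4, a proton-pumping subunit of complex I, had 263 and 298 CPM at 18-22 h, against 480 and 494 CPM at 6-8 h, a log2 fold change of -0.80 (95% interval -1.38 to -0.21; edgeR adjusted p 0.0686). No overlap was seen for 10 of the 15 mRNA and rRNA genes, all lower, against 26.1% of all features. Markers of other cell types moved with stage in these cells: by edgeR 8 of 14 muscle markers were higher at 18-22 h and 1 lower, and 4 of 7 hemocyte and 5 of 8 neuron markers were higher. The summed muscle markers were 1938 and 1567 CPM at 18-22 h, against 298 and 485 CPM at 6-8 h, and the hemocyte markers 4706 and 2528 CPM at 18-22 h, against 104 and 238 CPM at 6-8 h. In repo-negative, repo-positive and elav-positive cells these markers rose with stage as well. By edgeR, in that order, 9 (with 1 lower), 6 and 5 of 14 muscle markers were higher. So were 5, 3 and 3 of 7 hemocyte and 7, 3 and 2 of 8 neuron markers. Of all features 7.16%, 1.85% and 1.83% were higher there. The part of these markers in the stage results was not tested.

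None of the members passed edgeR's test there, against 12.2% of all features, while 4 had an unadjusted p under 0.05 (26.3% of all features) and DESeq2 called 2 (16.3%). The lysine tRNA Lys-CTT had the opposite sign, with 101 and 119 CPM at 18-22 h, against 41.7 and 25.5 CPM at 6-8 h in elav-negative cells. Its log2 fold change was 1.72 ± 0.62 (SE; 95% interval 0.44 to 3.01; edgeR adjusted p 0.0729). The rRNA sums of the stages overlapped, at 18032 and 24236 CPM at 18-22 h, against 31731 and 21869 CPM at 6-8 h.

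In repo-positive cells the protein-coding sum was 5975 and 5957 CPM at 18-22 h, against 4794 and 5041 CPM at 6-8 h, a ratio of 1.21. The 11 mRNA and rRNA genes without overlap were all higher at 18-22 h, against 24.1% of all features. The protein-coding median was 0.23 with TMM but -0.085 with total-count scaling, where the median of all features moved by -0.317, to -0.383. By edgeR 0 members were called, against 3.7% of all features, with 0 at an unadjusted p under 0.05 (17.8% of all features) and 0 by DESeq2 (7.28%).

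In elav-positive cells the protein-coding sum was 4240 and 4428 CPM at 18-22 h, against 5121 and 5260 CPM at 6-8 h, a ratio of 0.835. Of the 15 mRNA and rRNA genes, 6 were lower without overlap, against 23.8% of all features. The protein-coding median was -0.16. The rRNA median was 0.21, and it turned to -0.07 without replicate 2 of the elav 6-8 h fractions and to -0.22 with total-count scaling, where the median of all features was -0.498. By edgeR 0 members were called, against 3.02% of all features, with 2 at an unadjusted p under 0.05 (16.2% of all features) and 1 by DESeq2 (6.11%).

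In repo-negative cells the protein-coding and rRNA sums of the stages overlapped, with ratios of 0.943 and 0.920, and 5 of the 15 genes lay lower and 2 higher without overlap, where 30.4% and 30.3% of all features did. The tRNA sum did not overlap, at 849 and 1719 CPM at 18-22 h, against 2895 and 3312 CPM at 6-8 h, a ratio of 0.414. Most of this sum was Ser-GCT, with 736 and 1538 CPM at 18-22 h, against 2684 and 3133 CPM at 6-8 h (log2 fold change -1.36; 95% interval -2.85 to 0.14; edgeR adjusted p 0.253). By edgeR 0 members were called, against 11.4% of all features, with 1 at an unadjusted p under 0.05 (24.7% of all features) and 0 by DESeq2 (15.6%).

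**Figure D5:**
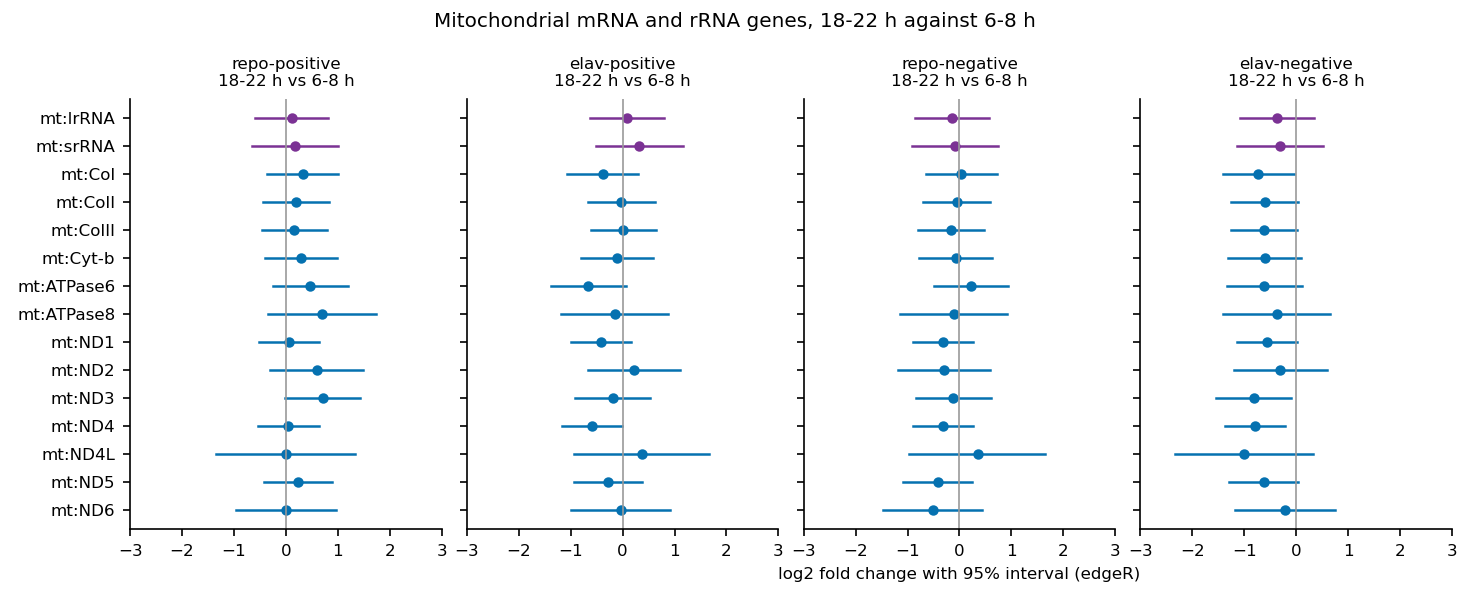
Log2 fold change of 15 mitochondrial mRNA and rRNA genes at 18-22 h over 6-8 h, with edgeR 95% intervals, in 4 fractions. In elav-negative cells all 13 protein-coding genes lie left of 0 with a median of -0.61, and in repo-positive cells the median is 0.23.

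Within the repo sort and within the elav sort, the difference between fractions was next compared across stage. The difference between stages of the positive against negative fold change had 0 calls among the members for repo, against 0.0853% of all features, and 0 for elav, against 1.14%, both by edgeR. At an unadjusted p under 0.05 there were 0 members for repo (8.5% of all features) and 1 for elav (12.7%), and DESeq2 called 0 in both (1.12% and 2.85% of all features). The median interaction over the protein-coding genes was 0.37 for repo and 0.35 for elav on the log2 scale. Tyr-GTA had an interaction of -3.20 ± 1.16 in the elav sort (SE; edgeR adjusted p 0.217), so a change of its difference between stages was not called.

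Neurons and glia were compared directly as elav-positive against repo-positive cells. The 2 fractions came from separate sorts, so sort and cell type cannot be told apart in this contrast. The negative fractions of these sorts also had unlike protein-coding means. At 6-8 h these were 8186 CPM in elav-negative and 6043 CPM in repo-negative cells, and at 18-22 h 5227 and 5699 CPM. At 18-22 h the elav-positive fraction was lower for 13 of the 15 mRNA and rRNA genes without overlap, against 23.8% of all features, and the protein-coding median was -0.54 beside 0.03 for all features. ND4 had 217 and 183 CPM in elav-positive cells, against 336 and 289 CPM in repo-positive cells (log2 fold change -0.65; 95% interval -1.23 to -0.06; edgeR adjusted p 0.210). ATPase8 had 40.2 and 46.1 CPM in elav-positive cells, against 109 and 75.0 CPM in repo-positive cells (log2 fold change -1.09; edgeR adjusted p 0.242). ND4L was higher without overlap, where 28.3% of all features were, at 9.89 and 6.54 CPM in elav-positive cells, against 5.66 and 3.47 CPM in repo-positive cells.

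No member was called in this comparison by edgeR, against 6.07% of all features, with 4 at an unadjusted p under 0.05 (18.5% of all features) and 0 by DESeq2 (9.84%). At 6-8 h the same comparison had 0 calls by edgeR, against 3.9% of all features, with 0 at an unadjusted p under 0.05 (15.3% of all features) and 0 by DESeq2 (6.84%). Of the 15 mRNA and rRNA genes, 1 lay lower and 3 higher without overlap, where 20.2% and 22.3% of all features did. The protein-coding median there was -0.07, and it was 0.04 without replicate 2 of the elav 6-8 h fractions and 0.25 with total-count scaling, where the median of all features was 0.287. CoI had 1648 and 1974 CPM in elav-positive 6-8 h cells, against 1375 and 1591 CPM in repo-positive 6-8 h cells. These groups did not overlap, and the log2 fold change was 0.29.

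The nuclear genes that complete the same complexes were counted in the same libraries. Of 89 listed nuclear subunits of the respiratory chain and ATP synthase, 78 were tested. In elav-negative cells 8 of them were higher and 0 lower at 18-22 h than at 6-8 h by edgeR, where 6.77% of all features were higher and 5.43% lower. The median of the 78 was 0.45, beside 0.07 for all features, while the mitochondrial protein-coding median was -0.61. UQCR-C2, a core subunit of complex III, was among them with a log2 fold change of 2.65 (edgeR adjusted p 0.000874), as was blw, the alpha subunit of ATP synthase, with 1.56. The summed level of the list was 708 and 797 CPM at 18-22 h, against 472 and 474 CPM at 6-8 h in these cells.

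In the elav sort at 6-8 h, 2 of the nuclear subunits were higher in elav-positive cells and 0 lower, where 5.38% of all features were higher and 3.6% lower. The 2 were UQCR-C2 with a log2 fold change of 1.69 and ND-51L1 with 2.22. The median of the 78 was -0.32, the same sign as the mitochondrial protein-coding median of -0.70. The 2 medians shared a sign in some comparisons and not in others. For elav-positive against repo-positive cells at 18-22 h they were -0.68 (nuclear) and -0.54 (mitochondrial). For 18-22 h against 6-8 h they were 0.42 and -0.16 in elav-positive cells. In repo-positive cells they were 0.80 and 0.23, and in repo-negative cells 0.184 and -0.115. Outside this sort and the stage comparison of elav-negative cells, edgeR called between 0 and 3 of the 78 in each of the other 11 comparisons. Of all features 0.0853% to 14.1% were called there. All 71 listed mitochondrial ribosomal proteins were tested, and edgeR called 3 of them over the 13 comparisons. These were mRpS18B, lower in pros-positive cells, mRpL35, lower in elav-positive 18-22 h cells, and mRpL22, lower in repo-negative cells at 18-22 h. In the same order, 1.26%, 5.24% and 4.27% of all features were called lower.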

How the data were processed

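Each deposited value is an estimated count per gene: per the file headers, the authors ran featureCounts 1.5.1 on Ensembl release 85 exons, stranded, with multi-mapped reads counted as fractions and reads overlapping several genes allowed. Submitters' processing notes name Bowtie 1.1.2 and SAMtools 1.8. Reads shared with nuclear copies of mitochondrial sequence could therefore be split between places. Of the 740 member values, 73.1% were not whole, and values were rounded before the count models. From the 17559 features, 237 miRNA hairpins and 59 features overlapping one were left out. edgeR 4.0.16 (R 4.3.3) fitted all 20 libraries together with TMM scaling, filterByExpr (11726 features tested), the quasi-likelihood test and Benjamini-Hochberg adjustment over all tested features. The fit was checked on simulated counts. DESeq2 1.42.0, other scalings, no filter, unrounded values, a replicate block and leaving libraries out were alternatives. Class sums carry no test. All mRNA and rRNA genes could be named, and tRNAs if called or among the 3 most abundant per kb; the 2 neighbours of Ser-GCT were added after their values were seen. Members and lists were chosen with earlier results of these data known. No library was a copy of another. With 2 replicates a group, p-values rest on spread pooled over groups. Sequences were not used here.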

Additional observations from a re-analysis of the deposited data

How the results depend on the processing

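Counts of called members out of 30 changed as follows, with the cause not tested. In the elav sort at 6-8 h (0 in the reported fit) there was 1 with TMM from nuclear protein-coding genes and 1 with DESeq2, and 0 to 3 when 1 library was left out, the 3 without elav-positive 6-8 h replicate 1. In the pros sort (2) there was 1 with nuclear TMM, 1 without rounding and 1 without both elav 6-8 h replicate 2 libraries, and 1 to 4 with 1 library left out, the 4 without pros-positive replicate 1. In the elav sort at 18-22 h (1) DESeq2 called 3 and leaving out 1 library gave 0 to 1. For 18-22 h against 6-8 h in elav-positive cells (0), total-count scaling, DESeq2 and no filter each gave 1, and leaving out 1 library 0 to 2. In repo-negative cells (0) total-count scaling gave 1. In elav-negative cells (0) DESeq2 gave 2, no filter 1 and leaving out 1 library 0 to 1. For elav-positive against repo-positive cells at 6-8 h (0), leaving out 1 library gave 0 to 3. CoI in the elav sort at 6-8 h reversed under total-count scaling, to 0.15 (adjusted p 0.838), where the median of all features was 0.677. The highest over lowest group mean moved under total-count scaling to 2.40 for protein-coding and 2.59 for rRNA genes.

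The replicate numbers are shared between fractions, but deviations of same-numbered libraries correlated at 0.05, 0.169, 0.012, 0.073 and 0.072 in the 5 sorts with 2 pairs each, so the numbers were not taken as pairs. With so few pairs this cannot exclude an effect shared by same-numbered libraries. The value of 0.169 is that of the elav sort at 6-8 h, where both replicate 2 libraries stood apart in miRNA counts and protein-coding share. With the replicate number as a block, edgeR called 1 member in the elav sort at 6-8 h and 1 in the pros sort.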
